A study of Piaractus mesopotamicus with 9 samples.

Results

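The Notch receptors, the jagged ligands and the hairy and hey target genes were followed in the mRNA of cultured myotubes of pacu (Piaractus mesopotamicus), a South American fish. The genes were taken by name from a list of 10 (notch1a, notch1b, notch2, notch3, jag1a, jag1b, jag2b, hey1, heyl and her6), and 8 of these names were found, on 43 of the 69932 annotated contigs. No contig was matched to jag1a or heyl, which were not analysed here. The 9 libraries were divided into 3 of the AA group, 3 of the IGF1 group and 3 of the CTR group. All cells came from fast-twitch muscle of pooled juvenile fish, were grown as myoblasts until day 8 of culture, when myotubes had formed, and then lost their amino acids for 12 h. Amino acids were then given back to the AA cells, whereas the IGF1 cells received recombinant gilthead sea bream IGF1 and no amino acids. The CTR cells stayed without amino acids, for 36 h in all. The sample protocol and the paper give 24 h for the AA and IGF1 supplements and the treatment field of the same samples gives 12 h. By the study's methods, the AA medium was DMEM while the CTR and IGF1 media were built on Earle's salts with vitamins and glucose. AA therefore differs from both CTR and IGF1 in base medium as well as in amino acids, and from IGF1 also in the added IGF1. The paper speaks of minor differences and holds that the media differed in essence by amino acids or IGF1. Libraries of 1 group were taken as replicates. The paper states that its results came from 3 independent cell cultures and describes the sequenced replicates of each group as such. A culture may therefore have supplied libraries of more than 1 group. The paper does not say which libraries of different groups came from the same culture. The main fit has no term for the culture, and a fit with the replicate number as a block is given below. The p-values measure the spread between these libraries.

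Notch signaling passes between neighbouring cells. A delta or jagged ligand on the surface of a cell binds a Notch receptor on the next, the receptor is cut by an ADAM protease and then by the gamma-secretase complex, and its freed inner part enters the nucleus, where with the DNA-binding protein RBPJ it turns on genes of the hairy and hey families. The proteins of these targets repress transcription. In mouse muscle, the pathway is known for holding satellite cells, the stem cells of the fibre, in an undifferentiated state and for restraining myogenic differentiation.

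The raw counts summed to between 1366043 and 53525876 per library, and the shallowest library was AA replicate 3, where 15.103% of tested contigs had no count, while no other library exceeded 4.33%. The contigs of the 8 genes held 682 counts in that library and 16397 in the deepest, IGF1 replicate 3. A count in AA replicate 3 therefore stands for 7.03 normalized counts, the scale used for the levels below, which is the raw count divided by the authors' size factor of the library. The cultures expressed markers of muscle and of other cells. Of 13 myotube markers 7 were measured, and their summed normalized counts were 1272 to 2243 in AA, 487 to 624 in IGF1 and 345 to 481 in CTR. All 7 fibroblast markers were measured, with sums of 117055 to 127969 in AA, 171804 to 177522 in IGF1 and 112901 to 122339 in CTR. The 5 endothelial markers measured of 7 summed to 218 to 442 in AA, 331 to 395 in IGF1 and 316 to 332 in CTR, and the 4 measured of 7 for pericytes and smooth muscle to 3090 to 3442 in AA, 3601 to 4235 in IGF1 and 5104 to 5656 in CTR. None of the 7 blood markers and none of the 5 markers of neurons and glia reached a mean raw count of 10, and 1 of 5 adipocyte and 1 of 4 epithelial markers did. Marker names without a contig may stand under other names in the annotation.

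Of the 8 genes with a contig, 6 had at least 1 contig averaging 10 or more raw counts, the authors' minimum, and were tested (notch1a, notch2, notch3, jag1b, hey1 and her6). Those 6 genes held 25 of the 35575 tested contigs. Each gene is described by its leading contig, the one with the highest mean normalized count. Contigs of 1 assembled gene had near-equal counts in many cases and are not independent measurements. Raw counts of the 9 libraries were tested together by the quasi-likelihood F test of edgeR, with p adjusted by Benjamini-Hochberg over all 35575 contigs, and a gene was called at an adjusted p of 0.05 or less.

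The receptor notch1a was called higher in AA compared to CTR, and it was the only call there among the 6 genes, against 13.1% of all leading contigs called in that comparison (6.61% higher and 6.5% lower in AA) and 11.9% of all contigs (5.29% higher and 6.6% lower). In IGF1 compared to CTR, none of the 6 was called by edgeR, against 6.4% of all leading contigs (3.09% higher and 3.31% lower in IGF1) and 5.93% of all contigs (2.5% higher and 3.43% lower). The adjusted p of jag1b, which was lower in IGF1, and of hey1 and her6, which were higher, lay between 0.0651 and 0.0677 from edgeR. Of these, hey1 passed the minimum count only through its IGF1 counts, and it enters every count and median of the 6 genes given here. These 3 genes had an unadjusted p under 0.05 in IGF1 compared to CTR, as did 18.6% of all leading contigs. An unadjusted p under 0.05 was also reached by 3 of the 6 genes in AA compared to CTR (26.8% of all leading contigs) and by 3 of 6 in AA compared to IGF1 (22.5% of all). In IGF1 compared to CTR, DESeq2 called jag1b and her6 and gave hey1 no adjusted p. There edgeR's newer quasi-likelihood method, chosen after seeing the data, called all 3 genes. The shares given here belong to the main edgeR fit and cannot be set against the calls of other methods. The ligand jag1b was called higher in AA compared to IGF1, against 9.04% of all leading contigs called (4.29% higher and 4.76% lower in AA) and 8.39% of all contigs (3.88% higher and 4.51% lower). The groups did not overlap in 2 of 6 genes for AA compared to CTR, where 32.6% of all leading contigs did not overlap, in 3 of 6 for IGF1 compared to CTR (30.2% of all) and in 3 of 6 for AA compared to IGF1 (27.6% of all). The median log2 fold-change of the 6 genes was 0.39 in AA compared to CTR, 0.39 in IGF1 compared to CTR and 0.25 in AA compared to IGF1, beside −0.02, 0.01 and −0.02 over all contigs.

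**Figure D1:**
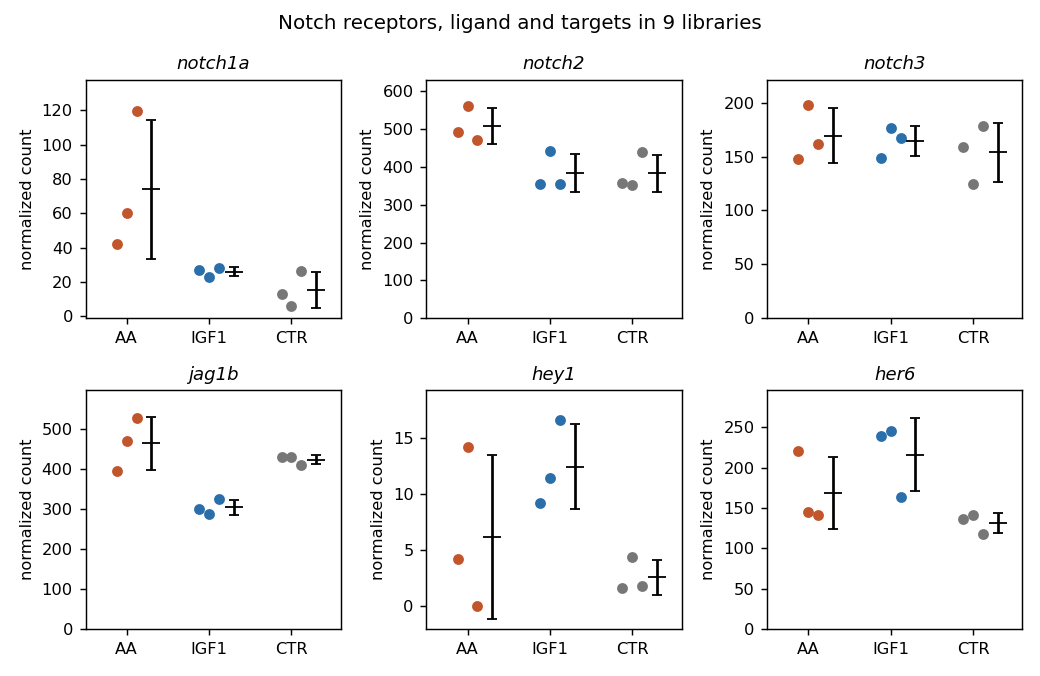
Normalized counts (y axis, linear, raw counts over the authors' size factors) of the leading contig of each tested gene in the AA, IGF1 and CTR libraries; points are libraries and the black bars give the mean and SD of 3 libraries. The notch1a points of AA, from 42.3 to 120, lie above all CTR points, the jag1b points of IGF1, from 288 to 325, lie below all others, and the her6 and hey1 points of IGF1 lie above all CTR points.

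The receptors are single-pass membrane proteins that serve as both sensor and messenger. The leading contig of notch1a (Duran_pc_TRINITY_DN5684_c0_g1_i5) had 42.3, 60.2 and 120 normalized counts in AA, 26.9, 22.8 and 28.2 in IGF1, and 12.9, 5.84 and 26.5 in CTR. All AA libraries were above all CTR and all IGF1 libraries, and the CTR and IGF1 libraries overlapped. The highest AA value, of replicate 3, rests on 17 raw counts. The level of notch1a was 74.0 ± 40.4 in AA and 15.07 ± 10.52 in CTR (mean ± SD of 3 libraries), and the fitted log2 fold-change was 2.06 ± 0.50 (SE, edgeR adjusted p = 0.00987). The call was kept with each library left out, where the log2 fold-change was 1.70 to 2.83, and was lost when all libraries were thinned to the shallowest (1.98, edgeR adjusted p = 0.0551). For notch1a in IGF1 compared to CTR, the value was 0.75 ± 0.48 (SE, edgeR adjusted p = 0.473), and it was 1.51 without CTR replicate 3 and 0.39 without CTR replicate 2. Set against IGF1, the level of notch1a in AA had a log2 fold-change of 1.31 ± 0.49 (SE, edgeR adjusted p = 0.119), so that a difference between the treatments did not pass. Of the 4 notch1a contigs, 2 were called higher in AA compared to CTR, both of the same assembled gene, against 5.29% of all contigs. The last contig of that gene had a log2 fold-change of 1.53 (edgeR adjusted p = 0.201). The notch1a contig of another assembled gene (Duran_pc_TRINITY_DN6187_c0_g2_i1) had 0.98 (edgeR adjusted p = 0.389), with raw counts of 2 in each of AA replicates 1 and 3. In this culture of several cell types, more cells with notch1a and more notch1a RNA per cell cannot be told apart, and the same holds for the genes below. Beside this result, edgeR called 6 of the 7 measured myotube markers higher in AA compared to CTR, against 6.61% of all leading contigs. It called none of the 5 endothelial markers, whose log2 fold-changes were −0.26 (kdrl) to 0.50 (vwf). The lowest edgeR adjusted p of these 5 was 0.521 (cdh5). Of the 7 fibroblast markers, it called 2 higher, postnb (2.53) and lum (0.50), and 1 lower, fap (−1.43). Of 4 for pericytes and smooth muscle, 1 was called lower, acta2 (−0.81), as was the 1 epithelial marker tested, krt4 (−0.57). Of all leading contigs, 6.5% were called lower there. The part of these markers in the notch1a result was not tested.

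The receptor notch2 varied little between libraries of 1 group. Its 1 contig (Duran_pc_TRINITY_DN2594_c1_g1_i1) had 493, 562 and 471 normalized counts in AA, 356, 442 and 356 in IGF1, and 357, 353 and 440 in CTR. The AA libraries were all above the CTR and IGF1 libraries, by a narrow margin. For notch2, the log2 fold-change was 0.41 ± 0.16 in AA compared to CTR (SE, edgeR adjusted p = 0.105), −0.02 ± 0.15 in IGF1 compared to CTR (SE, edgeR adjusted p = 0.978) and 0.42 ± 0.16 in AA compared to IGF1 (SE, edgeR adjusted p = 0.119). The differences of AA passed with no normalization beyond the library size (0.56 to CTR and 0.61 to IGF1). With that scaling the median over all contigs was 0.12 and 0.15, and with TMM it was −0.02 in both.

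The receptor notch3, which in mammals marks mural cells of vessels and is also found in satellite cells, had 148, 197 and 162 normalized counts in AA, 149, 177 and 167 in IGF1, and 159, 124 and 178 in CTR on its leading contig (Duran_pc_TRINITY_DN2594_c1_g2_i2). All 3 groups overlapped. The log2 fold-change of notch3 was 0.15 ± 0.21 in AA (SE, edgeR adjusted p = 0.712) and 0.08 ± 0.20 in IGF1 (SE, edgeR adjusted p = 0.901), each compared to CTR. Its second contig had 0.24 and −0.09, and neither contig was called in any comparison by edgeR. The leading contigs of notch2 and notch3 came from 1 assembly cluster, so the division of reads between these receptors is uncertain. The notch1b contigs, 10 in number, held 15 raw counts in AA, 27 in IGF1 and 18 in CTR, with 0 in 3 libraries, so that no difference in notch1b was detectable at this depth. The annotation also has 3 contigs named notchl, which are not among the 10 names and were all below the minimum.

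The jagged proteins are ligands that stay in the membrane of the signal-sending cell. The ligand jag1b had the most contigs of the group, 15 in number, of which 13 were tested and all 13 belonged to 1 assembled gene. The leading contig (Duran_pc_TRINITY_DN9639_c0_g1_i28) had 396, 470 and 527 normalized counts in AA, 299, 288 and 325 in IGF1, and 431, 429 and 411 in CTR. All IGF1 libraries were below every AA and every CTR library, and the AA libraries spread on both sides of CTR. The level of jag1b was 464 ± 65.9 in AA and 304 ± 19.1 in IGF1 (mean ± SD of 3 libraries), and the fitted log2 fold-change was 0.57 ± 0.15 (SE, edgeR adjusted p = 0.025). The CTR level was 424 ± 10.8 (SD, n = 3). For IGF1 compared to CTR, jag1b had a log2 fold-change of −0.47 ± 0.15 (SE, edgeR adjusted p = 0.0677), a fold-change of 0.723 that did not pass. For AA compared to CTR it had 0.10 ± 0.15 (SE, edgeR adjusted p = 0.744).

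These values of jag1b sat near the threshold. The call in AA compared to IGF1 was lost without AA replicate 2 (edgeR adjusted p = 0.0982), without IGF1 replicate 1 (0.0736), replicate 2 (0.0739) or replicate 3 (0.0627), with no filter on low counts (0.095), in a fit of only these groups (0.0543) and in thinned libraries (0.17). Over all alternatives its log2 fold-change there was 0.51 to 0.75. The difference in IGF1 compared to CTR, −0.57 to −0.43 over the alternatives, was called in 6 of 20, among them without AA replicate 1 (edgeR adjusted p = 0.0498) and without AA replicate 3 (0.041). These AA libraries are in neither group of that comparison. They enter it through the shared fit, that is the estimate of spread, the normalization and the adjustment of p. With counts summed over the jag1b contigs, it was −0.53 (edgeR adjusted p = 0.0199).

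**Figure D2:**
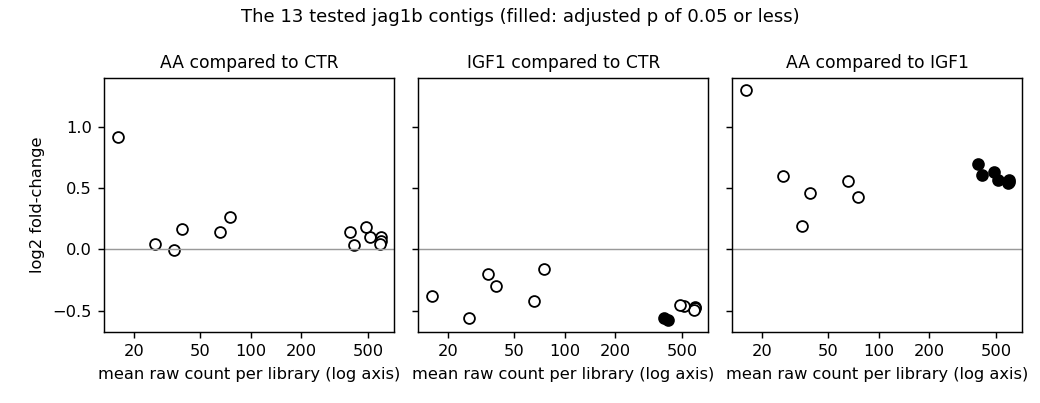
Log2 fold-change (y axis) of the 13 tested jag1b contigs against their mean raw count over the 9 libraries (x axis, log scale) in each comparison; filled points were called by edgeR. For AA set against IGF1 the 7 contigs with the most counts are filled and all 13 lie above 0, while in IGF1 compared to CTR all 13 lie below 0 and 2 are filled.

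Across the jag1b contigs, 7 of the 13 were called higher in AA compared to IGF1, against 3.88% of all contigs, and the 7 were those with mean raw counts from 393 to 601. The other 6 had mean raw counts from 16 to 75.3 and log2 fold-changes from 0.19 to 1.30. In IGF1 compared to CTR, the log2 fold-change of all 13 was negative, from −0.58 to −0.16, and 2 were called lower, against 3.43% of all contigs. None was called in AA compared to CTR by edgeR (13 values from −0.01 to 0.92). As contigs of 1 assembled gene, the 13 count as 1 gene. Beside the lower jag1b of IGF1, the fibroblast marker sum given above was higher in IGF1 than in any AA or CTR library. That sum is mostly col1a1a and col1a2. In IGF1 compared to CTR, 5 of the 7 fibroblast markers were called higher by edgeR, against 3.09% of all leading contigs. There lum (−0.03) and fap (−0.02) were not called. In AA compared to IGF1, 4 were called lower and 2, lum (0.53) and postnb (1.12), higher in AA. Of all leading contigs, 4.76% were called lower and 4.29% higher in AA there. The part of these markers in the jag1b result was not tested. A contig with the description jagged canonical Notch ligand 1 came from the same assembly cluster as jag1b and was outside the 10 names. Its raw counts in AA were 7, 28 and 4, and it was not called (log2 fold-change 0.90 in AA compared to IGF1, edgeR adjusted p = 0.407).

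The ligand jag2b was thinly sampled. Its 6 contigs, each of its own assembled gene and each below the minimum, held together 9, 27 and 4 raw counts in AA, 12, 0 and 91 in IGF1, and 10, 7 and 40 in CTR. On the normalized scale, these sums were 19.0, 18.3 and 28.1 in AA, 8.50, 0 and 18.2 in IGF1, and 8.03, 5.11 and 14.1 in CTR. All AA values of jag2b were above those of CTR and IGF1, though AA replicate 3 rests on 4 counts. Tested on counts summed per gene name, jag2b had a log2 fold-change of 1.05 in AA compared to CTR (edgeR adjusted p = 0.389) and 0.21 in IGF1 compared to CTR (edgeR adjusted p = 0.92), so that no difference was detectable at this depth.

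The targets encode basic helix-loop-helix repressors. The target her6, the zebrafish counterpart of the mammalian HES1, had 220, 145 and 141 normalized counts in AA, 240, 245 and 164 in IGF1, and 137, 141 and 118 in CTR on its leading contig (Duran_pc_TRINITY_DN9395_c0_g1_i6). All IGF1 libraries were above all CTR libraries, and the AA libraries overlapped both groups. The level of her6 was 216 ± 45.4 in IGF1 and 132 ± 12.3 in CTR (mean ± SD of 3 libraries), and the fitted log2 fold-change was 0.69 ± 0.22 (SE, edgeR adjusted p = 0.0658). For AA compared to CTR, her6 had 0.37 ± 0.23 (SE, edgeR adjusted p = 0.345), and in AA compared to IGF1 −0.33 ± 0.23 (SE, edgeR adjusted p = 0.464). Its 4 contigs, all of 1 assembled gene, gave 0.65 to 0.69 in IGF1 compared to CTR. The difference of her6 in IGF1 was called in 7 of 20 alternatives, among them without AA replicate 1 (edgeR adjusted p = 0.0439), without AA replicate 3 (0.0427) and without IGF1 replicate 3 (0.0476), and its log2 fold-change was 0.58 to 0.88 over all of them.

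The target hey1, a gene of the hey family also used by vessels and heart, had few counts on its 1 contig (Duran_pc_TRINITY_DN92288_c0_g1_i1). The raw counts of hey1 were 2, 21 and 0 in AA, 13, 4 and 83 in IGF1, and 2, 6 and 5 in CTR. On the normalized scale these were 4.23, 14.2 and 0 in AA, 9.21, 11.4 and 16.6 in IGF1, and 1.61, 4.38 and 1.77 in CTR. All IGF1 libraries lay above all CTR libraries, while the AA libraries spanned both groups. The 0 of AA replicate 3 allows up to 21.1 normalized counts, the value of 3 raw counts there, which exceeds every other library (a limit for counting error only). The log2 fold-change of hey1 was 2.34 ± 0.72 in IGF1 compared to CTR (SE, edgeR adjusted p = 0.0651), 1.82 ± 0.79 in AA compared to CTR (SE, edgeR adjusted p = 0.155) and −0.52 ± 0.71 in AA compared to IGF1 (SE, edgeR adjusted p = 0.753). The difference in IGF1 was called in 3 of 20 alternatives, among them without AA replicate 3 (2.35, edgeR adjusted p = 0.0362), and was 1.35 in thinned libraries (edgeR adjusted p = 0.865). Without AA replicate 2, the library with most of the AA counts, hey1 had 0.30 in AA compared to CTR and −2.04 in AA compared to IGF1. The fibroblast and myotube marker sums were also higher in IGF1 than in CTR, and that of pericytes and smooth muscle was lower. Of 5 endothelial markers, edgeR called 1, tek (1.52), higher in IGF1 compared to CTR and did not call 4, among them cdh5 (−1.11). Of 4 for pericytes and smooth muscle, cspg4 (1.62) was called higher and acta2 (−0.62) lower. Of all leading contigs, 3.09% were called higher and 3.31% lower there. The part of these markers in the her6 and hey1 values was not tested.

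**Figure D3:**
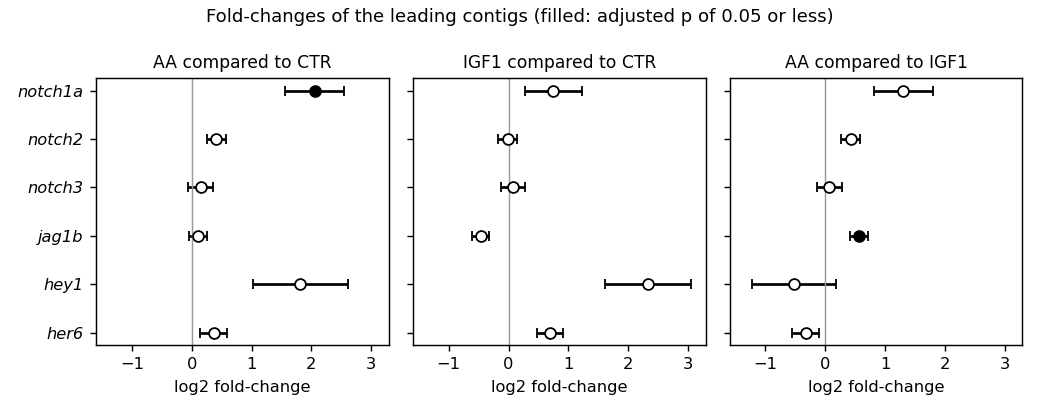
Log2 fold-change (x axis) of the leading contig of the 6 tested genes in the 3 comparisons, each positive when higher in the group named first; points are estimates, bars are standard errors and filled points were called by edgeR. Only notch1a in AA compared to CTR (2.06) and jag1b in AA compared to IGF1 (0.57) are filled, and notch3 lies near 0 throughout.

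Genes that act with these receptors and ligands, and further genes listed as targets, were taken from 6 lists with 85 genes. The last list also holds id genes, ccnd1 and myca. Among these, id1, a target of BMP signaling, is counted in the calls of AA compared to CTR and of AA compared to IGF1. Of the 85 genes, 47 were tested. Of the 47, 6 were called in AA compared to CTR and 41 did not pass, against 13.1% of all leading contigs called in either direction. All 6 were higher in AA, where 6.61% of all leading contigs were called higher. The myotube marker sum was higher in AA than in CTR as well, and its part in these calls was not tested. The median log2 fold-change of the 47 genes was 0.15, beside −0.02 over all contigs. In IGF1 compared to CTR none of the 47 was called by edgeR, against 6.4% of all leading contigs (median −0.02, beside 0.01 over all contigs). An unadjusted p under 0.05 was reached there by 5, against 18.6% of all leading contigs. DESeq2 called 1 (furinb, of a family of proteases that cut the receptor during its maturation) and the newer quasi-likelihood method 2 (dla and furinb). The comparison of AA with IGF1 gave 2 calls, against 9.04% of all leading contigs called in either direction (median 0.19, beside −0.02). Both were higher in AA, where 4.29% of all leading contigs were called higher.

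Of 9 other ligands only 2 were tested, both delta ligands. Both were called higher in AA compared to CTR, against 6.61% of all leading contigs called higher, and both calls were lost in several alternatives given below. In fish, the delta genes dla and dld are ligands known from the nervous system and the segmenting embryo. The normalized counts of dla were 19.0, 16.9 and 14.1 in AA, 19.1, 11.4 and 11.6 in IGF1, and 3.21, 4.38 and 3.54 in CTR. Every AA and IGF1 library of dla was thus above every CTR library, on raw counts of 2 to 58. The raw counts of dla were 9, 25 and 2 in AA, 27, 4 and 58 in IGF1, and 4, 6 and 10 in CTR. It passed the minimum mean of 10 only with its IGF1 counts included. Its log2 fold-change was 2.18 ± 0.61 in AA compared to CTR (SE, edgeR adjusted p = 0.025) and 1.93 ± 0.58 in IGF1 compared to CTR (SE, edgeR adjusted p = 0.0572). The call of dla in AA was lost without AA replicate 1 (edgeR adjusted p = 0.0611) or 2 (0.0853) and without CTR replicate 1 (0.0699), 2 (0.0614) or 3 (0.108). It was also lost in thinned libraries, where the log2 fold-change of dla was 1.06 (edgeR adjusted p = 0.755), with no filter on low counts (edgeR adjusted p = 0.0582) and with limma (limma adjusted p = 0.0692). The normalized counts of dld were 52.9, 52.1 and 7.03 in AA, 28.3, 28.5 and 23.0 in IGF1, and 16.1, 9.49 and 14.9 in CTR. The low AA library of dld, replicate 3, held 1 raw count, so AA and CTR overlapped. All IGF1 libraries of dld were above all CTR libraries (log2 fold-change 0.95, edgeR adjusted p = 0.311). In AA compared to IGF1, dld had 0.73 (edgeR adjusted p = 0.418). Its log2 fold-change in AA compared to CTR was 1.67 (edgeR adjusted p = 0.0274), and its call was lost without AA replicate 1 (edgeR adjusted p = 0.0862) or 2 (0.157) and without CTR replicate 2 (0.115) or 3 (0.093). In thinned libraries the log2 fold-change of dld was 1.05 (edgeR adjusted p = 0.586), with limma it was 1.01 (limma adjusted p = 0.399), and a fit of only these groups gave an edgeR adjusted p of 0.0508.

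Of the 10 receptor-processing genes tested, 2 were called, both higher in AA compared to CTR. Of all leading contigs, 13.1% were called there in either direction and 6.61% higher. The protease gene adam17b, of the family that makes the first cut, had 442, 366 and 380 normalized counts in AA, against 276, 235 and 262 in CTR. All AA libraries were above all CTR libraries, with a log2 fold-change of 0.60 ± 0.16 (SE, edgeR adjusted p = 0.0174). That call of adam17b was lost without AA replicate 1 (edgeR adjusted p = 0.079), CTR replicate 2 (0.0796) or CTR replicate 3 (0.0695), with no filter on low counts (0.063), with counts summed per gene name (0.0551) and in thinned libraries (0.0538). In IGF1, adam17b had 357, 339 and 303 normalized counts, also all above CTR (log2 fold-change 0.37, edgeR adjusted p = 0.213). In AA compared to IGF1 it had 0.24 (edgeR adjusted p = 0.437). The genes psenen and aph1b, for subunits of gamma-secretase, had log2 fold-changes of −0.59 and −0.51 in AA compared to CTR and were not called. Neither was psen2, for another subunit (−0.08, edgeR adjusted p = 0.85). The ADAM genes adam10a (−0.92, edgeR adjusted p = 0.0964), adam10b (0.32) and adam17a (0.15) were not called there either.

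None of the 5 glycosylation genes and none of the 12 genes of the nuclear complex was called in any of the 3 comparisons by edgeR. At an unadjusted p under 0.05, 1 glycosylation gene passed in AA compared to IGF1, and 2 nuclear genes in AA compared to CTR and 1 in AA compared to IGF1. Of all leading contigs, 26.8% passed this in AA compared to CTR and 22.5% in AA compared to IGF1. DESeq2 called 1 gene of these lists, the corepressor gene spen, higher in AA compared to CTR. The nuclear genes included rbpjb, whose contig held at most 48 raw counts in a library, and the coactivator maml1 (log2 fold-change −0.06 in AA and −0.15 in IGF1, each compared to CTR). The edgeR adjusted p of spen was 0.0613, with 84.7, 52.1 and 112 normalized counts in AA, against 39.4, 29.2 and 43.1 in CTR. The spen values of AA and CTR did not overlap. In IGF1, spen had 51.0, 62.7 and 48.4 normalized counts, also all above CTR.

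Among 13 tested genes of trafficking and inhibition, nrarpa was the only call. Of all leading contigs, 13.1% were called in AA compared to CTR and 9.04% in AA compared to IGF1. The protein of nrarpa, in vertebrates a target of the pathway, binds the nuclear complex and limits it. The leading contig of nrarpa had 93.1, 96.7 and 162 normalized counts in AA, 13.5, 34.2 and 31.0 in IGF1, and 44.2, 46.7 and 37.5 in CTR. All AA libraries were above all CTR libraries, and all IGF1 libraries were below them. The level of nrarpa was 117 ± 38.6 in AA and 42.8 ± 4.77 in CTR (mean ± SD of 3 libraries), and the fitted log2 fold-change was 1.35 ± 0.35 (SE, edgeR adjusted p = 0.0147), whose call was lost without CTR replicate 3 (edgeR adjusted p = 0.0843) and with limma (limma adjusted p = 0.0506). Compared to IGF1, nrarpa in AA had a log2 fold-change of 2.10 ± 0.37 (SE, edgeR adjusted p = 0.00108), called in all 20 alternatives (1.77 to 2.42). In IGF1 compared to CTR, nrarpa had −0.75 ± 0.35 (SE, edgeR adjusted p = 0.285). The gene numb, an inhibitor that leads Notch to degradation, was the lowest of the list in AA compared to CTR, at a log2 fold-change of −1.34 (edgeR adjusted p = 0.0929), with 4, 39 and 0 raw counts in AA, against 69, 37 and 137 in CTR. DESeq2 called numb lower in AA compared to IGF1, where edgeR gave −1.53 (edgeR adjusted p = 0.0717).

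The last list held other hairy and hey genes with id genes, ccnd1 and myca, of which 5 of 23 were tested. The gene id1, a target of BMP signaling whose protein blocks basic helix-loop-helix factors, was called higher in AA. It had 662, 511 and 661 normalized counts in AA, 471, 351 and 302 in IGF1, and 419, 333 and 356 in CTR. All AA libraries were above all others. For id1, the log2 fold-change was 0.69 in AA compared to CTR (edgeR adjusted p = 0.0154) and 0.67 in AA compared to IGF1 (edgeR adjusted p = 0.0252). The call of id1 against CTR was lost without AA replicate 1 (edgeR adjusted p = 0.0679), CTR replicate 2 (0.0732) or CTR replicate 3 (0.0743), and that against IGF1 without AA replicate 1 (0.106) or IGF1 replicate 2 (0.0829) or 3 (0.158). Thinned libraries ended both id1 calls (edgeR adjusted p = 0.0747 against CTR and 0.0699 against IGF1), and counts summed per gene name the one against IGF1 (0.0546). The hairy gene her9 had 0.46 in AA and 0.40 in IGF1, each compared to CTR, and was not called.

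**Figure D4:**
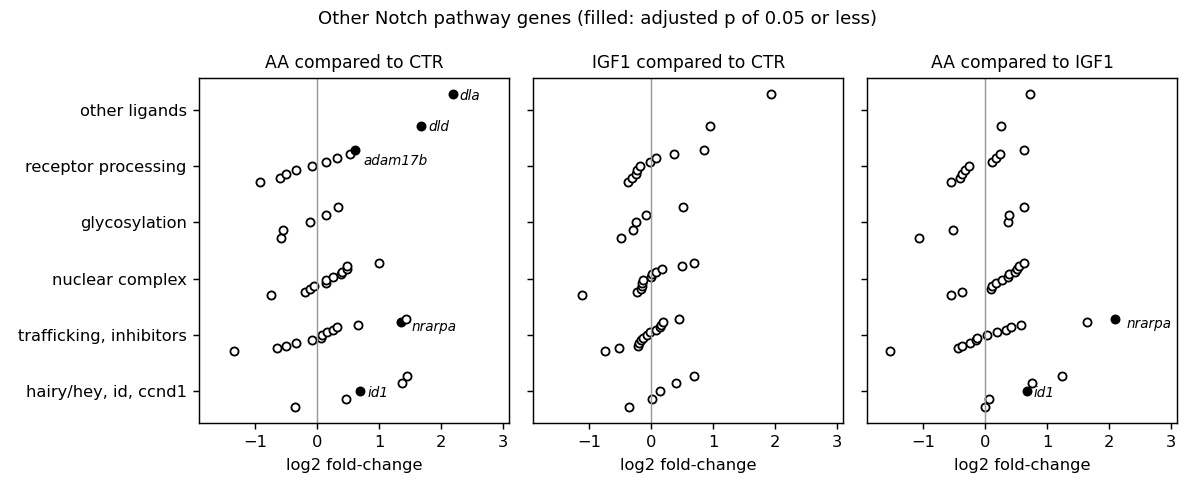
Log2 fold-change (x axis) of the leading contig of 46 of the tested pathway genes by list (y axis) in the 3 comparisons, positive when higher in the group named first; each point is a gene, and filled, named points were called by edgeR. For AA set against CTR 5 points are filled, from adam17b at 0.60 to dla at 2.18, none is filled in IGF1 compared to CTR, and nrarpa (2.10) and id1 (0.67) are filled in AA compared to IGF1.

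Myogenic genes give the muscle side of these cultures. Of 17 genes, 12 were tested, and in AA compared to CTR 4 were called higher and 1 lower, in IGF1 compared to CTR 2 higher and 1 lower, and in AA compared to IGF1 2 higher, all by edgeR. Beside these stand 6.61% higher and 6.5% lower, 3.09% higher and 3.31% lower, and 4.29% higher of all leading contigs in the same comparisons. DESeq2 called 7, 4 and 3 of the 12 in these comparisons and the newer quasi-likelihood method 5, 5 and 4. The shares above belong to the main edgeR fit and cannot be set against these counts of other tools. The differentiation factor myog had 432, 568 and 738 normalized counts in AA, 527, 416 and 462 in IGF1, and 274, 209 and 322 in CTR. All treated libraries of myog were above all CTR libraries, with log2 fold-changes of 1.05 in AA (edgeR adjusted p = 0.00123) and 0.808 in IGF1 (edgeR adjusted p = 0.0112). The IGF1 call of myog was lost without IGF1 replicate 1 (edgeR adjusted p = 0.0708) or CTR replicate 2 (0.0831), with counts summed per gene name (0.0668) and with limma (limma adjusted p = 0.0646). The gene mymk, which encodes a protein of myoblast fusion, had 138, 148 and 134 normalized counts in AA, 91.4, 157 and 126 in IGF1, and 84.3, 53.3 and 62.2 in CTR. Its log2 fold-change was 1.08 in AA (edgeR adjusted p = 0.00942) and 0.87 in IGF1 (edgeR adjusted p = 0.0431). Leaving out AA replicate 2 or CTR replicate 2 or 3 ended both mymk calls, and leaving out IGF1 replicate 2 or 3 ended that of IGF1, as did thinned libraries, limma and counts summed per gene name. The muscle cadherin gene cdh15 was called higher in AA compared to CTR (1.17, edgeR adjusted p = 0.00176). In AA compared to IGF1, cdh15 had 0.67 (edgeR adjusted p = 0.077), and DESeq2 and the newer quasi-likelihood method called it there. The gene mef2aa, of a muscle transcription factor, was called higher in AA compared to IGF1 (0.85, edgeR adjusted p = 0.0037). The gene myf5, the regulatory factor of committed myoblasts, was called in all 3. It had 233, 243 and 330 normalized counts in AA, 39.0, 57.0 and 80.5 in IGF1, and 106, 141 and 138 in CTR. The AA libraries of myf5 were above all CTR libraries and the IGF1 libraries below them, the same order as for nrarpa. Its log2 fold-change was 0.999 in AA compared to CTR (edgeR adjusted p = 0.0115), −1.08 in IGF1 compared to CTR (edgeR adjusted p = 0.0126) and 2.07 in AA compared to IGF1 (edgeR adjusted p = 3.74e-05). The fall of myf5 in IGF1 was not called without IGF1 replicate 1 (edgeR adjusted p = 0.0963), CTR replicate 2 (0.059) or CTR replicate 3 (0.0718). The satellite cell gene pax7b was the 1 lower in AA compared to CTR. The related gene pax7a, also tested, was not called there (0.08, edgeR adjusted p = 0.944) or in IGF1 compared to CTR (−0.54, edgeR adjusted p = 0.647). The normalized counts of pax7b were 106, 162 and 183 in AA, 110, 174 and 180 in IGF1, and 216, 242 and 319 in CTR. All CTR libraries of pax7b were above all treated libraries, with a log2 fold-change of −0.84 in AA (edgeR adjusted p = 0.0288) and −0.76 in IGF1 (edgeR adjusted p = 0.055), where DESeq2 and the newer quasi-likelihood method called it. The edgeR call of pax7b in AA compared to CTR was lost without AA replicate 1 (edgeR adjusted p = 0.139) or 2 (0.0529) and without CTR replicate 2 (0.0596) or 3 (0.178). It was also lost with no normalization beyond the library size (edgeR adjusted p = 0.0693), with limma (limma adjusted p = 0.0867) and in thinned libraries (edgeR adjusted p = 0.157). In thinned libraries edgeR also did not call myf5 in AA compared to CTR (edgeR adjusted p = 0.0627) or in IGF1 compared to CTR (0.299), cdh15 in AA compared to CTR (0.0991) or mef2aa in AA compared to IGF1 (0.0903). Both treatments share the CTR libraries.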

How the data were processed

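The 9 poly(A) libraries were made from pacu myotubes, 3 each of AA, IGF1 and CTR. The authors trimmed the reads with Trimmomatic after FastQC 0.11.8, assembled them with Trinity, named the contigs by BLASTx against proteins of 3 fish species and mapped each sample to them with Bowtie2. The counting tool is not given in the sources used here. The authors deposited whole-number raw counts per contig. They also deposited a normalized signal, each count divided by its library's DESeq2 size factor, restricted to 35575 contigs averaging at least 10 raw counts. Multiplied back, 100% of these values gave the raw count within 0.01.

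Tests on the raw counts used the quasi-likelihood F test of edgeR 4.0.16 (R 4.3.3, TMM, earlier deviance method, group as the only term). The SE of a log2 fold-change is its size divided by the square root of F. Alternatives used DESeq2 1.42.0 and limma 3.58.1. All shares of contigs called are those of the main edgeR fit. Those of the alternatives are not given here, so a larger count under another tool may reflect more calls throughout. The fit was also run on simulated data. Changes were placed there only in AA, and only in contigs with higher mean raw counts than notch1a, hey1, dla and dld. It therefore does not cover changes at the counts of these genes. The 10 genes and the lists were chosen with earlier results of these data known. Named genes are the members, list genes called in any comparison, and a few other list genes and markers chosen after their values were seen. The values of 1 called list gene are not reported here, though the list counts include it.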

Additional observations from a re-analysis of the deposited data

How the results depend on the processing

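Depth limits genes such as hey1, jag2b, notch1b, dla, dld, numb and rbpjb, since AA replicate 3 held 0 to 4 raw counts of each. For the 18 log2 fold-changes of the 6 tested genes, 321 of 360 values under the alternatives kept their direction and side of the threshold, 18 were newly called, 8 lost a call and 13 changed sign. For the called genes of the other lists, 292 values kept theirs, 68 lost the call and 0 changed sign. The number of genes called in AA compared to CTR was 1, and it was 2 with no normalization beyond the library size and 0 in libraries thinned to the shallowest. In IGF1 compared to CTR it was 0, and it was 2 with DESeq2, 3 in a fit of only these groups, 1 with counts summed per gene name, 3 with edgeR's newer quasi-likelihood method (chosen after seeing the data) and 0 to 3 with a library left out. In AA compared to IGF1 it was 1, and it was 2 with no normalization beyond the library size, 0 with no filter on low counts, 0 in a fit of only these groups, 0 in thinned libraries, 0 with a 2-fold minimum and 0 to 1 with a library left out. The shares of all contigs called under these settings are not given here. A larger number under a setting may therefore reflect more calls throughout. The sign changes were all of values never called. In thinned libraries jag1b and notch3 in AA compared to CTR were −0.019 and −0.18, notch1a and notch3 in IGF1 compared to CTR −0.14 and −0.0895, and notch3 in AA compared to IGF1 −0.0897. With counts summed per gene name, notch3 in IGF1 compared to CTR was −0.019, and notch2 there was 0.0035 with limma. With a library left out, notch2 in IGF1 compared to CTR was −0.10 to 0.095, notch3 −0.0499 to 0.20 there, −0.0432 to 0.27 in AA compared to CTR and −0.13 to 0.18 in AA compared to IGF1. The cause was not tested.

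With the replicate number as a block, the number called in IGF1 compared to CTR was 1 (her6) in place of 0, and the other counts of called members stayed at 1. Of the called list genes, dla (edgeR adjusted p = 0.0575) and dld (0.0592) lost their calls in AA compared to CTR with the block. The labels do not say whether libraries of the same number belong together. Residuals of same-numbered libraries correlated from −0.035 to 0.122, 1 of 9 above 0.1. Yet 12 of 18 comparisons of a library with another group, the larger part, had the highest correlation at its own number. These values therefore do not show that pairing was absent, and whether same-numbered libraries share a culture was not tested.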

Other observations

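Within a library, the ratio of 2 contigs does not depend on the depth of that library. The ratio of the jag1b leading contig to that of her6 was 1.80, 3.23 and 3.75 in AA, 1.25, 1.17 and 1.98 in IGF1, and 3.15, 3.05 and 3.49 in CTR. All IGF1 libraries were below all CTR libraries, and AA overlapped both. The separation of IGF1 from CTR had to follow from the levels given above. There every IGF1 library was below CTR for jag1b and above CTR for her6, so the ratio is not a separate observation. This ratio was chosen after the values were seen and has no test.

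For the receptor, ligand and target with the highest mean normalized count, the genes with the most similar profile were sought among 6523 other gene names averaging at least 100 raw counts, by Pearson's r of log2 of the normalized count plus 1 over the 9 libraries. For notch2 these were ehd4 (r = 0.96), zgc:65873 (0.94) and nlrx1 (0.92). For jag1b they were mbtps1, cthrc1b and adgra3 (each 0.95). For her6 they were eif2b1 (0.97), ctsz (0.94) and CR407586.1 (0.94). Each r is among the highest of 6523 over only 9 libraries, so high values can come from the selection alone. By rank (Spearman), the correlation of mbtps1 with jag1b was 0.72, the lowest of those named, and that of zgc:65873 with notch2 was 0.97, the highest. No shared regulation can be read from these values. The points share libraries and depth, and no test was made.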
